A study of Mus musculus with 8 samples.

Results

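Fkbp5, Zbtb16, Tsc22d3, Klf9, Klf15, Sgk1, Errfi1, Pik3ip1, Mt1 and Mt2 are genes known from other work to be induced by glucocorticoids, and the last pair encodes metallothioneins, which metals induce as well. They are 10 of the 30153 genes in the deposited table of the mouse heart, and all 10 passed the filter of at least 1 TPM (transcripts per 1000000 transcripts) in at least 4 of 8 libraries, which 10969 genes passed in all. The genes were selected on measured levels in these libraries, in the same contrast that is described here, so their differences and their covariation are given as a description, with no test. The study sequenced heart RNA of aged C57/BL6 mice that carry haplotype II of the human gene for the angiotensin II type 1 receptor, in both groups. Its title speaks of mice that overexpress this receptor, and the labels do not name the promoter that drives it. The western diet group (4 libraries) ate a western diet, that is, fatty and sugary food, and the control group (4 libraries) carried the same haplotype and was labelled as aged with no diet named. The labels do not state sex, age in months, feeding time, hour of collection or whether each library is a separate animal.

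Glucocorticoids are adrenal steroids whose release follows the time of day, feeding and stress. They bind the glucocorticoid receptor Nr3c1, which is held in the cytosol by heat shock proteins and FKBP co-chaperones, and the bound receptor enters the nucleus and acts on genes through short inverted repeats, the glucocorticoid response elements. In heart muscle cells both this receptor and the related mineralocorticoid receptor Nr3c2 can bind the same steroid. Metallothioneins are small cysteine-rich proteins that bind zinc and copper, and zinc induces them through the metal-sensing factor Mtf1 at metal response elements.

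Several transcripts outside the 10 genes set single libraries apart, partly along the line between the groups. Summed red cell markers were at 14256, 5283, 1975 and 2500 TPM in western diet replicates 1 to 4, against 2378 to 4455 TPM in the controls, highest in the libraries that also had the highest levels of most of the 10 genes. Summed macrophage markers came to 368, 251, 225 and 227 TPM in western diet replicates 1 to 4, against 205 to 253 TPM in control. Cardiomyocyte markers summed to 52063 to 64337 TPM with western diet and 58837 to 64153 TPM in control, as the heart label implies, and no marker of these cell types was at 0 in all libraries. Y-linked Eif2s3y was at 0, 0, 0.0231 and 22.3 TPM in western diet replicates 1 to 4, against 21.1 to 29.0 TPM in the controls. Summed Y-linked markers were at 0.227, 0.270, 0.228 and 41.3 TPM in western diet replicates 1 to 4, against 38.6 to 52.6 TPM in control. The labels do not give sex, so for western diet replicates 1 to 3 diet and sex cannot be told apart in any gene described here. Atrial Myl7 was at 335 TPM in western diet replicate 2, against 184 and 1403 TPM in control replicates 1 and 3 and 1.10 to 2.87 TPM elsewhere. Kidney tubule transcripts also set the groups apart. Kap ranged from 7.15 to 72.1 TPM in the western diet libraries, while the controls held 0 to 0.685 TPM (limma adjusted p = 0.0169). That limma adjusted p was 0.0806, 0.0633 and 0.0537 without control replicates 2, 3 and 4. Summed kidney tubule markers, Kap included, came to 9.53 to 79.6 TPM with western diet, against 0.0336 to 0.744 TPM in control. Miox and Slc34a1, under the filter and named after their values were seen, were at 0 in all controls. With western diet Miox held 0.601 to 2.73 TPM and Slc34a1 0.259 to 2.86 TPM. The source of these kidney transcripts was not tested. Interferon-induced Irf7 was at 14.7, 10.5, 11.7 and 61.0 TPM in western diet replicates 1 to 4, against 3.65 to 5.32 TPM in control. The part of these transcripts in the levels of the 10 genes was not tested. In bulk heart RNA, more cells of a type that holds a transcript and more of it per cell cannot be told apart.

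The 10 genes stood high in western diet replicates 1 and 2, and mostly at control level or below it in western diet replicates 3 and 4. The 10 genes' median level was 2.50, 1.98, 0.958 and 1.05 times the control mean in western diet replicates 1 to 4, where the median over all 10969 genes was 1.09, 1.13, 1.03 and 0.939 times the control mean. Western diet replicate 1 exceeded all 4 controls for 10 of 10 genes, and 43.1% of all genes did so in that library. Western diet replicate 2 exceeded all controls for 9 of 10, the exception being Pik3ip1, against 50.0% of all genes. Western diet replicate 3 did so for 3 of 10, namely Fkbp5, Zbtb16 and Sgk1, against 27.0% of all genes. Western diet replicate 4 did so for 0 of 10, against 13.3% of all genes. The same library lay below all controls for 4 of 10 (Tsc22d3, Klf9, Klf15 and Pik3ip1), against 32.7% of all genes, and western diet replicate 3 did for Klf15 and Pik3ip1, against 19.7% of all genes. In 0 of the 10 genes did all 4 western diet libraries lie above all 4 controls, which 4.85% of all genes did. These places depend on the scale, because TPM ran higher for most genes in western diet replicates 1 and 2. After median-of-ratios scaling 25.9%, 26.3%, 25.2% and 25.1% of all genes exceeded all controls in western diet replicates 1 to 4, and 9, 9, 3 and 4 of the 10 genes did. The 4 genes of western diet replicate 4 on that scale were Fkbp5, Zbtb16, Sgk1 and Errfi1.

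**Figure D1:**
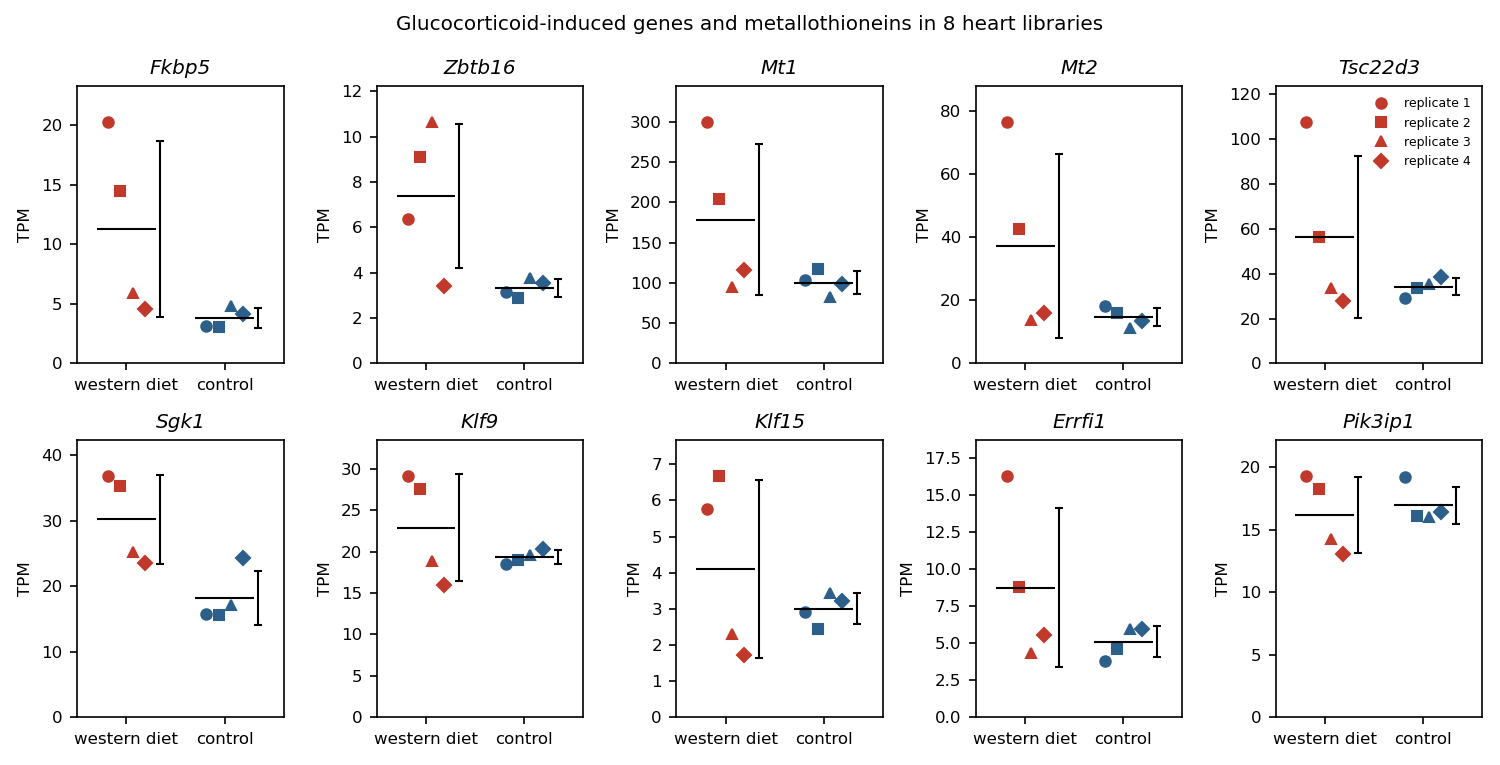
Level in TPM (y axis, from 0) of each of the 10 genes in the 4 western diet libraries (left, red) and the 4 control libraries (right, blue). Symbols mark the replicate, horizontal lines the group mean and bars 1 SD; circles and squares of the western diet group stand highest in 8 of the 10 panels, with Zbtb16 and Pik3ip1 as the other two.

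Fkbp5 encodes a co-chaperone that lowers the affinity of the glucocorticoid receptor for its hormone and is itself among the receptor's best known targets. It lies on chromosome 17 from 28399094 to 28517527 on the minus strand (GRCm38). Fkbp5 was at 20.2, 14.4, 5.88 and 4.59 TPM in western diet replicates 1 to 4, against 3.14, 3.07, 4.798 and 4.16 TPM in control replicates 1 to 4. Western diet replicates 1 and 2 were far above every control, replicate 3 was just above the highest control, and replicate 4 lay within the control range. The mean was 11.3 ± 7.39 TPM with western diet and 3.79 ± 0.836 TPM in control (SD, n = 4 per group), a ratio of 2.97 and the largest among the 10 genes. On the log2(TPM + 1) scale, on which all log2 differences here are given and which understates the change of low genes, western diet minus control was 1.16 (SE 0.36), and 0.83 without western diet replicate 1.

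Zbtb16 encodes the zinc finger transcription factor PLZF and lies on chromosome 9 from 48654297 to 48836222. It was at 6.38, 9.10, 10.6 and 3.40 TPM in western diet replicates 1 to 4, against 3.16, 2.88, 3.76 and 3.55 TPM in the controls. Among the 10 genes only Zbtb16 had its highest value in western diet replicate 3, and western diet replicate 4 lay within the control range. The mean was 7.38 ± 3.19 TPM with western diet against 3.34 ± 0.393 TPM in control, a log2 difference of 0.86 (SE 0.25).

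Tsc22d3 encodes GILZ, a leucine zipper protein through which glucocorticoids dampen inflammatory signalling, and lies on chromosome X from 140539528 to 140600659. It was at 108, 56.5, 33.7 and 28.0 TPM in western diet replicates 1 to 4, against 29.2, 33.8, 35.4 and 38.6 TPM in the controls. Western diet replicates 1 and 2 lay above the controls, replicate 3 within them and replicate 4 just below the lowest. The mean was 56.4 ± 36.2 TPM with western diet against 34.3 ± 3.95 TPM in control, a log2 difference of 0.51 (SE 0.33). Without western diet replicate 1 that difference was 0.14.

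Klf9 and Klf15 encode Kruppel-like transcription factors, and Klf15 is known in mouse as a regulator of cardiac lipid and amino acid use. Klf9 (chromosome 19, 23141226 to 23168134) was at 29.1, 27.5, 18.9 and 15.9 TPM in western diet replicates 1 to 4, against 18.5, 19.0, 19.6 and 20.4 TPM in the controls. The controls spanned a narrow range, with a mean of 22.8 ± 6.44 TPM with western diet and 19.4 ± 0.818 TPM in control and a log2 difference of 0.19 (SE 0.17), which was 0.062 without western diet replicate 1, 0.088 without replicate 2 and 0.34 without replicate 4. Klf15 (chromosome 6, 90462576 to 90475238) was at 5.76, 6.67, 2.31 and 1.72 TPM in western diet replicates 1 to 4, against 2.92, 2.44, 3.44 and 3.21 TPM in the controls. Its western diet libraries split to either side of the controls, with replicates 1 and 2 above all of them and replicates 3 and 4 below all of them. The mean of 4.11 ± 2.46 TPM with western diet against 3.002 ± 0.429 TPM in control (log2 difference 0.22, SE 0.29) therefore describes no western diet library, and without western diet replicate 2 the difference was −0.018.

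**Figure D2:**
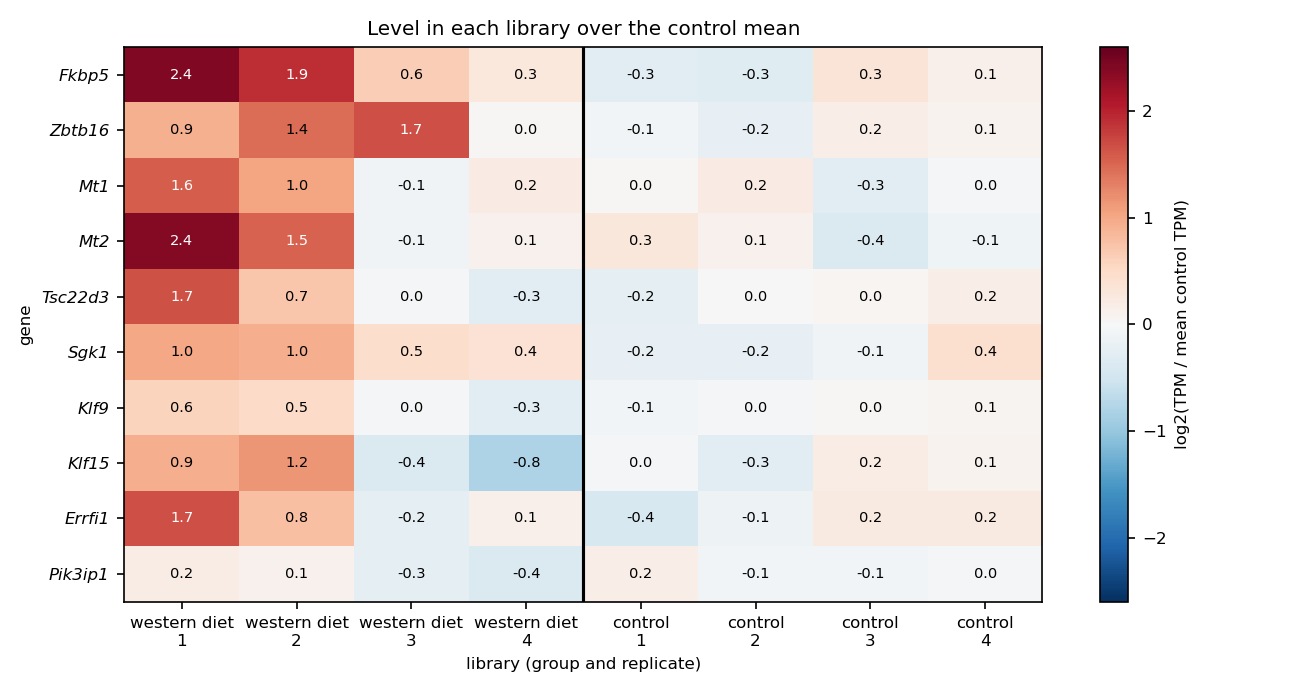
Log2 of TPM over the mean control TPM for the 10 genes (down the page) in the 4 western diet libraries (left of the line) and the 4 controls (right of it); red is above and blue below the control mean. The first pair of western diet columns is red for all 10 genes, replicate 3 is strongly red for Zbtb16, and replicate 4 is bluest for Klf15.

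Sgk1 encodes serum- and glucocorticoid-regulated kinase, which acts on sodium and potassium channels and on FOXO factors. It lies on chromosome 10 from 21882184 to 21999903. Sgk1 was at 36.8, 35.2, 25.1 and 23.6 TPM in western diet replicates 1 to 4, against 15.8, 15.6, 17.2 and 24.3 TPM in the controls. The highest control, replicate 4, lay between western diet replicates 3 and 4 and was the only overlap of the groups. The mean was 30.2 ± 6.78 TPM with western diet against 18.2 ± 4.11 TPM in control, a log2 difference of 0.69 (SE 0.17).

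The window before a start of Sgk1 is shown because it holds an exact inverted repeat of the glucocorticoid response element, which few of the searched windows do. Inexact forms of the repeat were not searched. RefSeq start sites gave windows for 9 of the 10 genes, and the 250 bases before each start were searched on both strands for the inverted repeat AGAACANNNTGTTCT. It was found in 3 of 32851 windows (0.00913%), and among the 10 genes only in this window of Sgk1, beginning 189 bases before the start. Its 6-base core TGTTCT, which the repeat contains on each strand, was in 16.1% of all windows. In the 10 genes the core was in 3 of the 6 windows of Sgk1 and 1 of the 3 windows of Tsc22d3. The sequence, chr10:21993640-21993889 of GRCm38.p6 on the plus strand, lies in introns of the longer Sgk1 transcripts of GENCODE, and capitals mark the repeat.
Sgk1: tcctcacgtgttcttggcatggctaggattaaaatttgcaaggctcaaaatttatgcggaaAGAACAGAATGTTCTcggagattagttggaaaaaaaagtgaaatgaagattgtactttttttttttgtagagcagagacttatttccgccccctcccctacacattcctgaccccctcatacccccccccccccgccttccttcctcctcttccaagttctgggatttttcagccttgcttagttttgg

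A match is a description of letters, and no match says only that these letters are not in the searched window.

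Errfi1 encodes MIG6, an inhibitor of the epidermal growth factor receptor and its ERBB relatives. Errfi1 (chromosome 4, 150853919 to 150868892) was at 16.3, 8.80, 4.38 and 5.57 TPM in western diet replicates 1 to 4, against 3.84, 4.65, 5.98 and 5.97 TPM in the controls. Western diet replicate 1 stood apart, replicate 2 was above the controls by less, and replicates 3 and 4 lay inside the control range. The mean was 8.76 ± 5.36 TPM with western diet against 5.11 ± 1.06 TPM in control, a log2 difference of 0.54 (SE 0.30), and 0.22 without western diet replicate 1.

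Pik3ip1 encodes a membrane protein that binds and inhibits PI3-kinase. Pik3ip1 (chromosome 11, 3330401 to 3342971) was at 19.3, 18.2, 14.2 and 13.05 TPM in western diet replicates 1 to 4, against 19.2, 16.1, 16.05 and 16.4 TPM in the controls. It followed the same order among the western diet libraries as Fkbp5, around a mean that was the only one of the 10 not higher with western diet, at 16.2 ± 3.02 TPM against 16.9 ± 1.503 TPM in control (log2 difference −0.07, SE 0.13). The mean log2 level was higher with western diet for the other 9 genes, as it was for 66.4% of all genes. The median log2 difference over the 10 genes was 0.61, and over all genes tested it was 0.06.

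Mt1 and Mt2 lie next to each other on chromosome 8, Mt2 from 94172664 to 94173568 and Mt1 from 94179082 to 94180327, both on the plus strand and 5513 bases apart. Mt1 was at 299.6, 204, 94.4 and 116 TPM in western diet replicates 1 to 4, against 103, 117, 82.6 and 98.6 TPM in the controls. Mt2 was at 76.5, 42.7, 13.7 and 15.997 TPM in western diet replicates 1 to 4, against 18.1, 15.9, 11.3 and 13.6 TPM in the controls. For both genes western diet replicates 1 and 2 stood clear of the controls, and replicates 3 and 4 lay within their range. Mt1 averaged 178 ± 93.7 TPM with western diet and 100.3 ± 14.2 TPM in control, a log2 difference of 0.69 (SE 0.30). Mt2 averaged 37.2 ± 29.3 TPM with western diet and 14.7 ± 2.93 TPM in control, a log2 difference of 0.97 (SE 0.44). Without western diet replicate 1 these differences were 0.39 for Mt1 and 0.52 for Mt2.

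The balance between the pair also differed among libraries. Mt2 stood at 0.255, 0.209, 0.145 and 0.138 of the TPM of Mt1 in western diet replicates 1 to 4, against 0.175, 0.136, 0.137 and 0.138 of it in the controls. The libraries with the most metallothionein transcript, western diet replicates 1 and 2 with summed levels of 376 and 247 TPM, also had the highest share of Mt2, while the other 6 libraries held 93.9 to 133 TPM in sum. The transcripts of Mt1 and Mt2 share no 31-base word, the word length at which transcripts were compared for reads that could go to either. Mt2 overlaps the antisense gene Gm45774, which has no value in the table, and the strand setting of the counting is not stated. Reads of Mt2 and of Gm45774 therefore cannot be told apart. Errfi1, Pik3ip1 and Fkbp5 have antisense neighbours of the same kind.

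**Figure D3:**
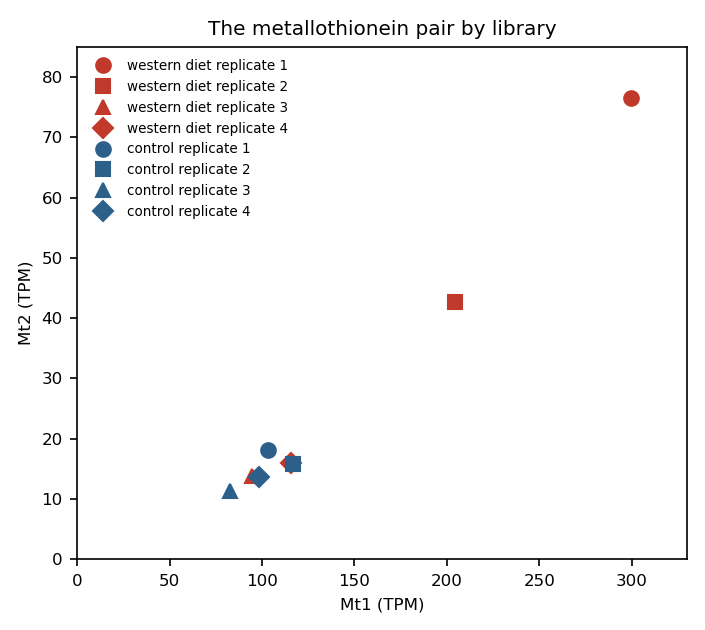
Mt2 against Mt1, both in TPM on axes from 0, for the 4 western diet libraries (red) and the 4 controls (blue), with symbols for the replicate. Western diet replicates 1 and 2 lie apart at 299.6 and 204 TPM of Mt1, and the other 6 libraries sit together at 82.6 to 117 TPM.

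The stretches before the RefSeq start of each metallothionein gene are shown for the metal response element core. It was searched as TGCACNC or TGCGCNC on both strands in the same 250-base windows. GENCODE also places starts of Mt1 at 94179211 and 94179241 and of Mt2 at 94172860. The bases between the windows and those starts were not searched, so the counts of matches compare these windows and not the whole promoters. That core was in 21.4% of all 32851 windows and was present at least 3 times in 1.26% of them. Mt2 had 3 matches, at 223, 128 and 50 bases before the RefSeq start, Mt1 had 1, at 23 bases before it, and Klf15 had 1, at 169 bases before it, while the windows of the other 6 genes searched had none. The printed stretches are chr8:94178839-94179081 for Mt1 and chr8:94172368-94172617 for Mt2, both GRCm38.p6 and plus strand, with the core in capitals.
Mt1: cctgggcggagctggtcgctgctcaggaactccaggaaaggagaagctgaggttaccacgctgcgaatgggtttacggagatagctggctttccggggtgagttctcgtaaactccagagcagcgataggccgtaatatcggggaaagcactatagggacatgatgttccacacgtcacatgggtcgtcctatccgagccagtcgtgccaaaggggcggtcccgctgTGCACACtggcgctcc
Mt2: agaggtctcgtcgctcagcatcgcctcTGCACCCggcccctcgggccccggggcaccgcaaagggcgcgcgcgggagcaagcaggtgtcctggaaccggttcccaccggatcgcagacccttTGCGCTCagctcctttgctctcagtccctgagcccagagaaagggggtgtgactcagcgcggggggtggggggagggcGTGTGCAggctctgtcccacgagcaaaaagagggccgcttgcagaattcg

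Neither window held the inverted repeat or its 6-base core, and response elements further away were not searched.

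Most of the 10 genes, Zbtb16 apart, varied together across the 8 libraries. After subtracting the group means, so that the contrast itself does not set it, the median Pearson r of log2(TPM + 1) over the 45 pairs of genes was 0.82 across 8 libraries, and 32 of the 45 pairs (71.1%) were above 0.7. Over all 60153996 pairs of tested genes the median was 0.33 and 16.5% were above 0.7. All pairs share the same 8 libraries and their scaling, western diet replicates 1 and 2 sit apart from the rest, and the genes were selected on these values, so no p is given. Within 1 group the 4 libraries are too few for a correlation, and the sign of r was negative for 1 of the 45 pairs within western diet and for 21 of the 45 within control. Mt1 and Mt2 had r = 0.98 (Spearman rho 0.98), and 0.95 without western diet replicates 1 and 3, which lie farthest from the median of Mt1. Western diet replicates 1 and 2 were not left out together for any pair named here, so these values do not show r without both. Fkbp5 and Klf9 had r = 0.97 (rho 0.95), and 0.93 without western diet replicates 1 and 4. Klf9 and Klf15 had r = 0.97 (rho 0.93), and 0.96 without those libraries. The metallothioneins followed Fkbp5 less closely, with r = 0.86 (rho 0.76) for Mt2, and 0.63 without western diet replicates 1 and 4. Many tested genes outside the 10 had a higher r with Fkbp5 than Mt2, Mt1, Pik3ip1 or Sgk1 did. Their r with Fkbp5 therefore does not set them apart from other genes. Among the controls Fkbp5 was highest in replicate 3, where both metallothioneins were lowest.

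With the group means subtracted, Zbtb16 stood outside this pattern. Its r was −0.05 with Mt1 (rho −0.21) and 0.34 with Fkbp5 (rho 0.26), and the second became −0.09 without western diet replicates 1 and 4. The 9 pairs with Zbtb16 held the lowest values among the 45, up to 0.44 with Klf9 and Klf15. Sgk1 was between, with r of 0.59 to 0.82 with the genes other than Zbtb16. Without that subtraction the r of Zbtb16 ran from 0.049 with Pik3ip1 to 0.72 with Sgk1. It was then 0.68 with Fkbp5 (rho 0.88) and 0.41 with Mt1 (rho −0.07).

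**Figure D4:**
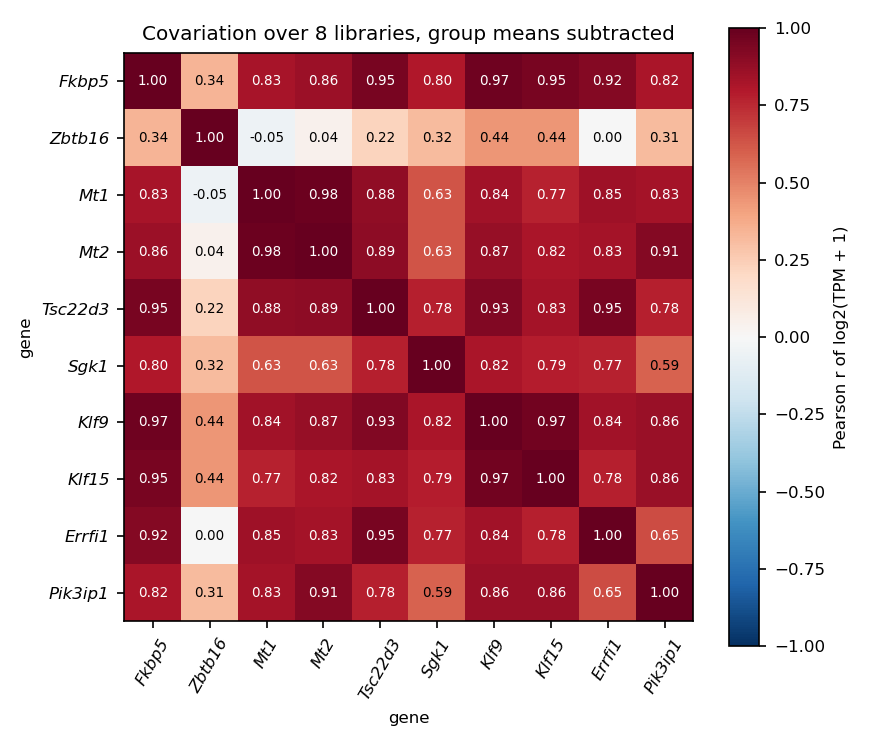
Pearson r of log2(TPM + 1) over 8 libraries after subtracting group means, for each pair of the 10 genes listed on both axes; red is positive. The row of Zbtb16 is pale, from −0.05 to 0.44, while the pair Mt1 and Mt2 reaches 0.98.

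By the same measure over 8 libraries the tested genes most like Fkbp5 were Fzd4 (r = 0.997), a Wnt receptor, Acer2 (0.996), a Golgi ceramidase, Cyb5r3 (0.995), Cln6 (0.994) and Xbp1 (0.991), the transcription factor of the unfolded protein response. Acer2 was at 17.4, 11.5, 5.53 and 4.31 TPM in western diet replicates 1 to 4, against 4.40, 4.63, 6.31 and 5.55 TPM in the controls. Its levels spread about as widely as those of Fkbp5, whereas Fzd4 spanned only 7.93 to 11.9 TPM with western diet and 7.54 to 8.49 TPM in control. The genes most like Mt2 were Psmb7 (0.994), a proteasome subunit, Slc25a34 (0.993), Anapc13 (0.989), Tfeb (0.989), a regulator of lysosome genes, and Cox4i1 (0.988). Slc25a34, a mitochondrial carrier, was at 109, 90.8, 63.1 and 65.3 TPM in western diet replicates 1 to 4, against 58.7, 52.3, 47.3 and 51.8 TPM in the controls. Psmb7 had 113 to 128 TPM with western diet and 131 to 135 TPM in control, so all 4 western diet libraries lay below all controls. These r values are taken after the group means are subtracted. Without that step r was 0.012 for Psmb7 with Mt2, and 0.21 for Cln6 and 0.47 for Cyb5r3 with Fkbp5.

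The receptors themselves showed no such split. Nr3c1 was at 11.4, 12.7, 13.9 and 12.5 TPM in western diet replicates 1 to 4, against 10.9, 10.2, 14.7 and 13.4 TPM in the controls (log2 difference 0.05, SE 0.12, limma adjusted p = 0.920). Nr3c2 was at 3.85, 3.96, 4.85 and 2.78 TPM in western diet replicates 1 to 4, against 3.42, 3.56, 5.199 and 4.38 TPM in the controls (limma adjusted p = 0.882). Both receptors overlapped between the groups, and Fkbp4, the co-chaperone that acts opposite to Fkbp5, was at 180 to 212 TPM with western diet and 191 to 199.8 TPM in control (limma adjusted p = 0.957). Hsd11b1, which regenerates active glucocorticoid inside cells, was at 10.7, 8.86, 7.76 and 15.6 TPM in western diet replicates 1 to 4, against 15.8, 14.9, 14.3 and 15.1 TPM in the controls. It was thus lower in western diet replicates 1, 2 and 3 and at control level in replicate 4, and the difference did not pass (log2 difference −0.49, SE 0.17, limma adjusted p = 0.280). Hsd11b2, which inactivates glucocorticoid, was at most 0.148 TPM in any library and was not tested.

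Of the 20 genes listed for the receptors, their chaperones, cofactors and steroid-converting enzymes, 19 were tested and limma called 0 higher and 0 lower at an adjusted p under 0.05. At an unadjusted p under 0.05, 3 were higher and 1 lower, and the median log2 difference was 0.09. Over all 10969 genes limma called 25 higher (0.228%) and 8 lower (0.0729%), and at the unadjusted threshold 1009 were higher and 275 lower. Hsp90aa1, a chaperone of the receptor, was at 69.3 to 94.7 TPM with western diet and 52.3 to 74.5 TPM in control (limma adjusted p = 0.263).

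Other genes known to be induced by glucocorticoids, a list of 36 that was put together with results of these data known, were above control most often in western diet replicates 1 and 2. Of these 31 were tested, 28 had a higher mean with western diet and 3 a lower one, where 66.4% of all genes had a higher mean, and the median log2 difference was 0.44. All 4 western diet libraries lay above all controls in 10 of the 31, where 4.85% of all genes did. In western diet replicates 1 to 4, 28, 28, 17 and 13 of the 31 exceeded all controls, against 43.1%, 50.0%, 27.0% and 13.3% of all genes. The same 28 did in replicates 1 and 2, against 31.4% of all genes for that pair. After median-of-ratios scaling the counts were 24, 26, 15 and 19, against 25.9%, 26.3%, 25.2% and 25.1% of all genes, so the counts of replicates 3 and 4 were above the share of all genes on both scales. The list's median level was 1.73, 1.74, 1.14 and 1.10 times the control mean in western diet replicates 1 to 4. Limma called 1 of the 31 higher and 0 lower at the adjusted threshold. At an unadjusted p under 0.05, 17 were higher and 0 lower, where 9.20% of all genes were higher.

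**Figure D5:**
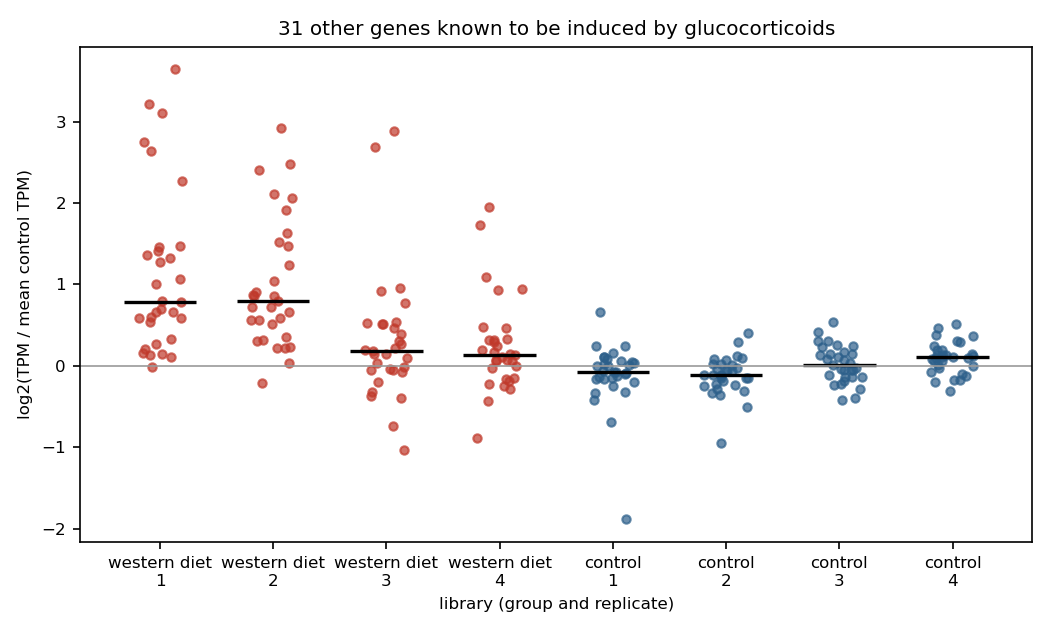
Log2 of TPM over the mean control TPM (y axis) for 31 other genes known to be induced by glucocorticoids, in each western diet library (red, left) and each control (blue, right); each point is a gene and black lines are medians. The medians of western diet replicates 1 and 2 are at 0.79 and 0.80, and those of replicates 3 and 4 at 0.19 and 0.13.

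The gene that passed was Pdk4, a kinase that restrains glucose oxidation and a target of fatty acid sensing receptors as well as of glucocorticoids. Pdk4 was at 359, 292, 249 and 148 TPM in western diet replicates 1 to 4, against 45.4, 34.7, 39.5 and 34.2 TPM in the controls (log2 difference 2.67, SE 0.22, limma adjusted p = 0.000561). It was high in all 4 western diet libraries, unlike the 10 genes. Ddit4, an inhibitor of mTOR signalling, followed the split of the 10 genes at 54.5, 30.5, 7.65 and 8.48 TPM in western diet replicates 1 to 4, against 6.42, 8.21, 6.13 and 11.6 TPM in the controls (limma adjusted p = 0.422). Dusp1, a phosphatase of MAP kinases, was at 12.4, 16.9, 8.56 and 7.37 TPM in western diet replicates 1 to 4, against 6.25, 4.67, 5.46 and 7.20 TPM in the controls (limma adjusted p = 0.183). All its western diet values lay above the controls, the last by a narrow margin. Cebpd, a transcription factor, was under the filter and not tested, at 4.03, 1.83, 0.427 and 0.777 TPM in western diet replicates 1 to 4, against 0.423 to 0.481 TPM in the controls.

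Per1 belongs both to this list and to the circadian clock. It was at 15.1, 11.7, 3.73 and 3.38 TPM in western diet replicates 1 to 4, against 3.86, 6.76, 5.69 and 8.65 TPM in the controls (log2 difference 0.20, SE 0.40, limma adjusted p = 0.891). Western diet replicates 1 and 2 were above all controls and replicates 3 and 4 below all of them, as for Klf15. Of 18 listed clock genes 17 were tested, and limma called 1 higher and 3 lower, against 0.228% and 0.0729% of all genes. At an unadjusted p under 0.05, 2 were higher and 7 lower, where 1009 and 275 of all 10969 genes were. Arntl, the clock activator BMAL1, rose to 3.22, 5.25, 4.32 and 4.19 TPM in western diet replicates 1 to 4, against 1.70, 0.950, 1.95 and 1.07 TPM in the controls (log2 difference 1.12, SE 0.16, limma adjusted p = 0.0169). Hlf fell to 2.06 to 2.90 TPM with western diet, against 4.99 to 5.56 TPM in control (limma adjusted p = 0.0121), Per3 fell to 1.14 to 1.86 TPM, against 2.71 to 3.68 TPM in control (limma adjusted p = 0.0169), and Tef fell to 29.9 to 34.2 TPM, against 40.7 to 48.4 TPM in control (limma adjusted p = 0.0459). The western diet libraries did not split for these 4 genes as they did for the 10. Dbp, an output of the clock, was at 3.64 to 6.90 TPM with western diet and 8.06 to 11.5 TPM in control without passing (limma adjusted p = 0.125). The hour of collection is not given in the labels, so diet and time of day cannot be told apart here. Without control replicate 4, or with no filter on low values, limma called 0 of the clock genes, without control replicate 2 it called Hlf alone, and Pdk4 passed under every alternative tried.

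Inflammatory genes known to be repressed by glucocorticoids were mostly too low to test. Of 20 listed, 8 passed the filter. Of these 6 had a higher mean and 2 a lower mean with western diet, where 66.4% of all genes had a higher mean. Limma called 0 higher and 0 lower, with 3 higher and 0 lower at an unadjusted p under 0.05, where 9.20% of all genes were higher. Ccl5, a chemokine, was at 1.85 to 5.54 TPM with western diet and 1.17 to 2.39 TPM in control (limma adjusted p = 0.274). Icam1, an adhesion molecule, was at 5.43 to 10.8 TPM with western diet and 4.05 to 6.31 TPM in control (limma adjusted p = 0.381).

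Of 33 listed sensors, relatives, transporters and chaperones of metal handling 22 were tested. Limma called 0 higher and 0 lower, where 0.228% and 0.0729% of all genes were called. At an unadjusted p under 0.05, 0 were higher and 0 lower, where 9.20% of all genes were higher. In western diet replicates 1 to 4, 12, 12, 8 and 3 of the 22 exceeded all controls, against 43.1%, 50.0%, 27.0% and 13.3% of all genes. The mean was higher with western diet in 15 and lower in 7, where 66.4% of all genes had a higher mean. Mt3, a metallothionein relative named after its values were seen, averaged 1.08 TPM with western diet and 1.85 TPM in control (limma adjusted p = 0.538). Mtf1 was at 3.05, 3.48, 3.49 and 3.55 TPM in western diet replicates 1 to 4, against 2.53, 2.39, 3.34 and 3.65 TPM in the controls (limma adjusted p = 0.680). Slc30a1, the zinc exporter that Mtf1 is known to induce, was at 1.78 to 2.37 TPM with western diet and 1.94 to 2.19 TPM in control (log2 difference 0.0079, SE 0.10, limma adjusted p = 0.984). Slc39a14, a zinc and iron importer, was at 14.998, 18.8, 14.4 and 10.9 TPM in western diet replicates 1 to 4, against 10.7, 10.4, 12.03 and 13.5 TPM in the controls (limma adjusted p = 0.468). Slc30a6, Slc39a11 and Slc39a10 had the smallest p of the list, each at a limma adjusted p of 0.439 or more.

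Of 15 other Kruppel-like factors 9 were tested, and their mean was higher with western diet in 9 of the 9 (median log2 difference 0.39), where 66.4% of all genes had a higher mean. In western diet replicates 1 to 4, 8, 8, 4 and 1 of the 9 exceeded all controls, against 43.1%, 50.0%, 27.0% and 13.3% of all genes. Limma called 0 of them in either direction, and 5 were higher and 0 lower at an unadjusted p under 0.05, which 9.20% of all genes passed in the higher direction. Klf2, a factor of endothelium, was at 38.1, 28.6, 11.3 and 18.9 TPM in western diet replicates 1 to 4, against 11.4, 15.2, 13.1 and 12.3 TPM in the controls (limma adjusted p = 0.353). Klf3 was at 5.38 to 8.35 TPM with western diet and 4.48 to 5.53 TPM in control (limma adjusted p = 0.261), and Klf11 at 2.51 to 3.54 TPM with western diet and 1.94 to 2.93 TPM in control (limma adjusted p = 0.375).

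Klf15 is known in mouse to activate genes of branched-chain amino acid and proline breakdown. Of 16 tested, the western diet mean was lower in 15 and higher in 1, where 66.4% of all genes had a higher mean. The median log2 difference was −0.07, and limma called 0 in either direction at the adjusted threshold and 0 at the unadjusted one. In western diet replicates 1 to 4, 3, 3, 7 and 10 of the 16 lay below all controls, against 10.5%, 9.17%, 19.7% and 32.7% of all genes. In the same order 2, 4, 0 and 0 of the 16 lay above all controls, against 43.1%, 50.0%, 27.0% and 13.3% of all genes. Klf15 itself was above all controls in western diet replicates 1 and 2 and below all controls in replicates 3 and 4. These places are in TPM and depend on the scale, and whether Klf15 bears on these 16 genes was not tested. Ppm1k, the phosphatase that activates the pathway's dehydrogenase, was at 14.8 to 18.6 TPM with western diet and 16.3 to 23.8 TPM in control (limma adjusted p = 0.445). Bckdhb, a subunit of that dehydrogenase, was at 28.1 to 40.2 TPM with western diet and 36.9 to 41.2 TPM in control (limma adjusted p = 0.447), and Dld, another component of it, was at 134 to 151 TPM with western diet and 149 to 167 TPM in control (limma adjusted p = 0.609).

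Of 15 SGK kinases, activators and substrates 13 were tested, with 0 called in either direction, 1 higher and 0 lower at an unadjusted p under 0.05 and a median log2 difference of 0.14. Over all genes 0.228% were called higher and 0.0729% lower, and 9.20% were higher at the unadjusted threshold. The FOXO factors Foxo4 and Foxo1 had limma adjusted p of 0.460 and 0.515. Of 14 PI3-kinase subunits and lipid phosphatases 12 were tested, with 0 called in either direction and a median log2 difference of 0.09. At an unadjusted p under 0.05, 2 were higher and 0 lower, where 9.20% of all genes were higher. Pik3r1, the main regulatory subunit, was at 22.3, 22.2, 17.5 and 13.7 TPM in western diet replicates 1 to 4, against 13.6, 11.7, 16.9 and 15.3 TPM in the controls (limma adjusted p = 0.417). The phosphatases Inpp5d and Inpp4b had limma adjusted p of 0.347 and 0.487.

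Of 14 ERBB receptors and ligands, on which Errfi1 acts, 6 were tested, with 0 called at either threshold in either direction and a median log2 difference of 0.04. Over all genes 0.228% were called higher and 0.0729% lower, and 9.20% were higher at the unadjusted threshold. Erbb3 was at 1.84 to 2.79 TPM with western diet and 2.45 to 3.30 TPM in control (limma adjusted p = 0.566), and Erbb2 and Nrg2 overlapped between the groups (limma adjusted p of 0.7001 and 0.796). Of 18 relatives of Tsc22d3, Fkbp5 and Zbtb16, 16 were tested. Their mean was higher with western diet in 8 and lower in 8, where 66.4% of all genes had a higher mean. Limma called 0 of them in either direction, with 2 higher and 1 lower at an unadjusted p under 0.05, and the median log2 difference was 0.01. Zbtb7a and Zbtb7b, other zinc finger factors of the BTB family, had limma adjusted p of 0.294 and 0.346, and Fkbp7, a chaperone of the endoplasmic reticulum, was at 14.3 to 16.1 TPM with western diet and 16.01 to 22.9 TPM in control (limma adjusted p = 0.359).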

How the data were processed

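Per the labels' protocols, a Qiagen kit was used to extract heart RNA and polyadenylated RNA went into stranded TruSeq libraries. The authors deposited gene-level TPM for 8 libraries, and kallisto, DESeq2 and GRCm38 are named in the submitters' processing notes, without versions or roles. TPM keeps no read depth, so depth is unknown and no counting interval or detection limit is given. TPM is relative, so a transcript with a large share lowers all others. The columns summed to 941318 to 953448, and 10620 to 11175 genes reached 1 TPM. Of 30153 identifiers 29732 were named through GENCODE vM21, and 9045 genes were 0 in all libraries.

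Groups came from the labels, and replicate numbers follow accession order and pair nothing. Nothing says that libraries are separate animals, so p-values reflect only how these samples vary, which may be technical. The 10969 genes that reached 1 TPM in 4 or more libraries were fitted with limma 3.58.1 in R 4.3.3 on log2(TPM + 1) (pseudocount 1, group as the only term, two-sided, with an intensity trend and a threshold of 0.05 on the Benjamini-Hochberg adjusted p); this fit was tested on simulated data. The 10 genes and the gene lists were chosen with earlier results of these data known. Named besides the 10 were a set group of receptor, metal, clock and glucocorticoid-induced genes, list genes past the threshold or else up to 3 with the smallest p, the 5 genes most like Fkbp5 and the 5 most like Mt2, and 4 markers of libraries that stand apart. Some genes that meet this rule are not reported here. Promoter windows came from RefSeq (GRCm38.p6) and were matched by symbol, with none for Zbtb16. Alternatives were other pseudocounts, filters, scalings, a term for Y-linked transcripts, leaving out libraries in which atrial Myl7 reached 100 TPM and each library in turn. Tables and figures were made with Python 3.11.15, pandas 2.3.3, scipy 1.17.1 and matplotlib 3.10.9.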

Additional observations from a re-analysis of the deposited data

Results flagged for a closer look

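In 136 groups of 4 libraries (68 genes), 10 had a highest or lowest library set far off from the rest by its gap relative to the group's range, and chance alone gives such a gap in about 5% of groups. Of the 10 genes only Pik3ip1 was among them, at 19.2 TPM in control replicate 1, against 16.05 to 16.4 TPM in the other controls. Hsd11b2 was at 0.0761 TPM in control replicate 4, against 0.0221 to 0.0251 TPM in the other controls. Mtf1 was lowest in western diet replicate 1 at 3.05 TPM, where replicates 2 to 4 held 3.48 to 3.55 TPM. Among zinc transporters, Slc30a6 was at 2.08 TPM in control replicate 1, against 1.496 to 1.55 TPM in the other controls, and Slc39a11 at 0.970 TPM in control replicate 2, against 1.52 to 1.63 TPM in the other controls. The markers chosen for standing apart did so again, with Eif2s3y at 22.3 TPM, Kap at 72.1 TPM and Irf7 at 61.0 TPM in western diet replicate 4. Myl7 was at 335 TPM in western diet replicate 2, and at 1403 TPM in control replicate 3.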

How the results depend on the processing

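The differences between western diet and control of the 10 genes were compared with 169 values under 17 alternatives. Of these 159 kept their sign and moved by less than 1 SD, 5 kept their sign and moved by more, and 5 turned. With a term for Y-linked transcripts, which leaves western diet replicate 4 as the only western diet library set against the controls, the log2 difference became −0.28 for Tsc22d3, −0.27 for Klf9 and −0.55 for Klf15, and moved to 0.24 for Fkbp5, 0.024 for Zbtb16, 0.13 for Mt2, 0.38 for Sgk1 and −0.35 for Pik3ip1. That term shifts the median of all genes by −0.13. With 1 library left out, the difference ranged from −0.018 (without western diet replicate 2) to 0.48 for Klf15, and from −0.16 to 0.017 (without western diet replicate 4) for Pik3ip1. Klf15 has no value where a mean of at least 5 TPM is asked for.

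The 33 genes called over the whole table became 5 with no filter, 15 with a mean of at least 5 TPM, 54 with the Y-linked term, 5 without the libraries with atrial transcripts, and 8 (without control replicate 4) to 95 (without western diet replicate 4) when 1 library was left out. Of the receptor list 0 to 1 gene was called when 1 library was left out, Hsd11b1 without western diet replicate 4. Of the other glucocorticoid-induced genes 2 were called without mitochondrially encoded genes (Pdk4 and Lcn2), and 1 to 2 when 1 library was left out, with Angptl4 added without western diet replicate 3. Clock genes called numbered 4, and 0 with no filter, 2 with the Y-linked term (Dbp and Hlf, so that Arntl, Per3 and Tef did not pass there), 1 without the libraries with atrial transcripts and 0 to 4 when 1 library was left out. With a mean of at least 5 TPM the number was 0, but Arntl, Per3 and Hlf lie under that mean and have no value there. Lcn2 and Angptl4 were named after their values were seen. The median r of the 45 pairs was 0.71 after median-of-ratios scaling, 0.92 without the libraries with atrial transcripts, and 0.72 (without western diet replicate 1) to 0.86 when 1 library was left out. Genes of the 10 above all controls in western diet replicate 4 numbered 4 after median-of-ratios scaling, 3 without mitochondrially encoded genes and 1 to 1 when 1 control was left out, these alternatives being chosen after seeing the data. The cause of these changes was not tested. No paired analysis was possible because the replicate numbers follow accession order and pair no libraries.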

Other observations

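In 10 of the 31 tested genes of the glucocorticoid-induced list all 4 western diet libraries lay above all 4 controls, which 4.85% of all genes did. Besides Pdk4 and Dusp1 these were Cebpb, Fam107a, Cdkn1a, Tgm2, Map3k6, Lcn2, Angptl4 and Ptgds, named here after their values were seen. Cebpb, Fam107a, Cdkn1a, Tgm2 and Map3k6 were highest in western diet replicates 1 and 2. Lcn2 had no such split, and Angptl4 was highest in western diet replicate 3. Ptgds was highest in western diet replicate 4, at 337, 458, 307 and 471 TPM in western diet replicates 1 to 4, against 166 to 294 TPM in the controls (limma adjusted p = 0.101). Cebpb, a transcription factor of the acute phase, was at 17.1, 11.4, 3.02 and 3.79 TPM in western diet replicates 1 to 4, against 2.62 to 2.94 TPM in the controls (limma adjusted p = 0.302). Fam107a, an actin-binding stress protein, was at 12.1, 4.21, 1.89 and 1.08 TPM in western diet replicates 1 to 4, against 0.876 to 1.05 TPM in the controls (limma adjusted p = 0.326). Cdkn1a, the cell cycle inhibitor p21, was at 56.7, 36.5, 12.5 and 12.5 TPM in western diet replicates 1 to 4, against 5.63 to 8.12 TPM in the controls (limma adjusted p = 0.116). Lcn2, a siderophore-binding protein, was at 4.61, 3.13, 2.94 and 3.32 TPM in western diet replicates 1 to 4, against 1.40 to 2.12 TPM in the controls (limma adjusted p = 0.0652). Angptl4, an inhibitor of lipoprotein lipase, was at 5.40, 5.84, 15.5 and 6.94 TPM in western diet replicates 1 to 4, against 1.09 to 3.32 TPM in control (limma adjusted p = 0.0630).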
